A study of Mus musculus with 6 samples.

Results

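The genes described here build and load MHC class II, the surface receptor that shows peptides to CD4 T cells, or switch it on, and they were followed in 6 whole grafts of a mouse melanoma grown in the tongue. The members were taken by name: the chain genes H2-Aa, H2-Ab1 and H2-Eb1, the invariant chain gene Cd74, the peptide loading genes H2-DMa and H2-DMb1, the protease gene Ctss, and the regulators Ciita and Rfx5. All 9 were found among the 55487 genes of the count table, and all 9 passed the filter on low counts, which left 15666 genes. The libraries were 3 grafts from mice in which pain-sensing nerves supplying the cervical lymph nodes were inhibited and 3 control grafts. Hosts were wild-type C57BL/6J mice, and the graft was B16F10, an established pigmented melanoma line placed under the tongue mucosa. The design text names 2 vectors injected into the cervical nodes, AAV2/retro-Trpv1-hM4D(Gi)-mCherry and AAV2/retro-Trpv1-mCherry, without saying in words which group had which. hM4D(Gi) is a designer receptor that silences neurons, mCherry a red protein, the virus travels backwards along axons, and the Trpv1 promoter is active in nociceptors. The nodes were injected 6 weeks before grafting, and all mice were described as receiving Deschloroclozapine, the ligand of the receptor, over 12 days with 2 doses daily. Sample labels call the controls vehicle-treated, so whether controls had the ligand is unclear. Nothing in the labels ties the grafts to separate animals, and the p-values below therefore speak only of the spread among these samples, which may be technical.

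MHC class II is a heterodimer of an alpha and a beta chain. The invariant chain holds the new dimer in the endoplasmic reticulum and guides it to endosomes, where cathepsin S trims it to a short stub that the DM heterodimer then exchanges for a peptide. Dendritic cells, macrophages and B cells carry it constitutively, and other cells, melanoma cells among them, can switch it on under interferon gamma. The genes are read through a promoter module, an X box bound by the RFX complex and a Y box bound by NF-Y, onto which the coactivator CIITA docks. C57BL/6 mice carry a defective H2-Ea gene and so show I-A but no I-E at the surface, although H2-Eb1 is transcribed. In these libraries H2-Ea had 0 counts in all 6.

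The promoter letters are shown because they are what the regulator genes of this group act through. RefSeq promoter sequences (GRCm38.p6) matched 6 of the 9 members by symbol. Capitals mark the letters of AGNNACNNATG (an X box core) and ATTGG (the Y box, the reverse complement of CCAAT). The following are the 120 bases before the annotated start of the 3 members with the Y box letters there on the gene's strand.
H2-Aa, minus strand, chr17:34287824-34287943: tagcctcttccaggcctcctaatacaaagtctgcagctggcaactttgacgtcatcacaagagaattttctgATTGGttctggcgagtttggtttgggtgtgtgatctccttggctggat
H2-Eb1, plus strand, chr17:34305747-34305866: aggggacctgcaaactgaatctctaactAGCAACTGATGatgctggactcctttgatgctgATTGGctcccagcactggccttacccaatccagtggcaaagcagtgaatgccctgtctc
H2-DMb1, plus strand, chr17:34153071-34153190: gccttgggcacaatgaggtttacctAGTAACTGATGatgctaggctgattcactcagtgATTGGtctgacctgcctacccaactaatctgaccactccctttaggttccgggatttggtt

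In H2-Eb1 the X letters began 92 bases before the start and the Y letters 59, with 22 bases between them. H2-DMb1 had nearly the same layout, at 95 and 61 bases with 23 between. H2-Aa held the Y letters 48 bases before its start, and the X letters were not in its window. Only this 1 X pattern was searched, so an X box with other letters would be missed. Over both strands of the whole promoter entries (250 bases before to 50 after the start), the X letters occurred in 2 of the 6 members against 3.09% of 32841 promoters, and the Y letters in 5 of 6 against 37.4%. X followed by Y on 1 strand at a distance of 10 to 40 bases occurred in 32 promoters (0.0974%) of 31 genes, among them H2-Eb1, H2-DMb1, H2-Eb2 and H2-Ob. The X box is known from class II promoters, and these genes are related by descent, so this is a description of the sequences.

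Of the members, 5 lie in the MHC on chromosome 17 (GRCm38): H2-DMa from 34119541 to 34139101, H2-DMb1 from 34153072 to 34160230, H2-Ab1 from 34257689 to 34269419, H2-Aa from 34282744 to 34287823 and H2-Eb1 from 34305867 to 34316674. Cd74 lies on chromosome 18. Ciita lies on chromosome 16 from 10480059 to 10528418, and Ctss (95526786 to 95556403) and Rfx5 (94954075 to 94961561) lie on chromosome 3. All are annotated as protein-coding. H2-DMb1 shares 22.7% of the 50-base words of its transcripts with its neighbour H2-DMb2, so reads can be split between them and its level is uncertain. Exons of other annotated genes cover 1471 bases of Rfx5, 360 of H2-DMa and 329 of Ciita, and the strand setting of the counting was not given, so these levels are uncertain too.

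The libraries held 14477277 to 20972494 counts, and a single count corresponded to 0.0476 to 0.0700 CPM (counts scaled to library size with TMM factors). Over all genes edgeR's quasi-likelihood test called 6 of 15666 at an adjusted p under 0.05, 5 higher and 1 lower under inhibition. All 9 melanoma markers were tested and 0 called; Pmel, a pigment granule gene, stood at 4402 to 5434 CPM under inhibition and 2871 to 4719 CPM in controls. The manipulated nerves ran to the nodes, and no targeted gene could be checked in the grafts.

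Per exon length the 9 genes differed widely in level. Ctss was the most abundant, with a mean of 49.9 RPKM (CPM divided by the exon length in kilobases) over the 6 libraries, and Cd74 came next with 20.0 RPKM. The chains followed close together, H2-Eb1 at 6.40, H2-Ab1 at 5.96 and H2-Aa at 4.42 RPKM, and their ranges over the libraries overlapped. H2-DMb1 averaged 3.77, Rfx5 2.13, H2-DMa 0.810 and Ciita 0.193 RPKM. The coactivator gene was thus the least abundant member in all 6 libraries, with 13 to 50 counts.

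**Figure D1:**
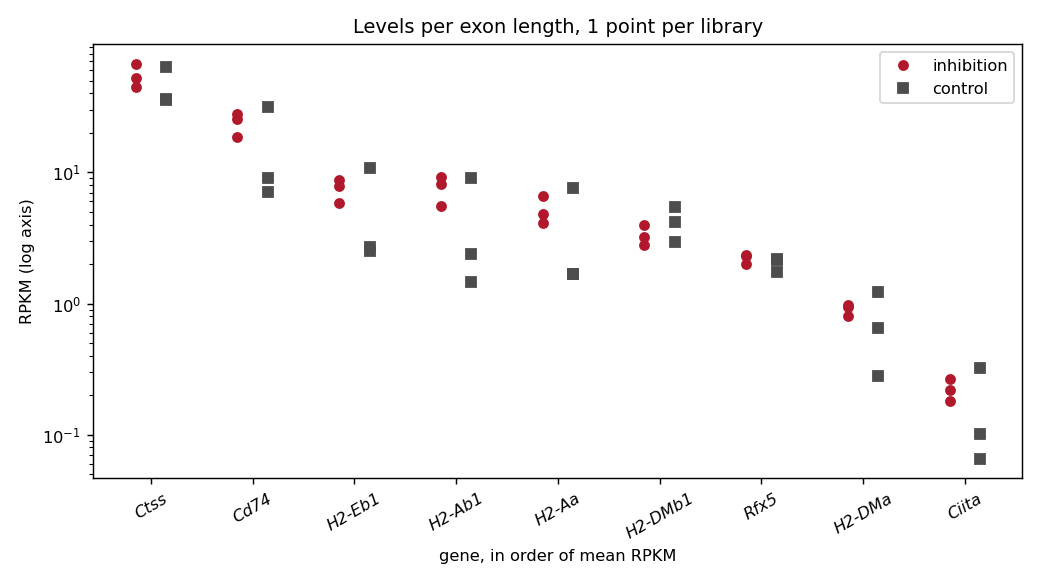
Level of each of the 9 genes in RPKM on a log axis, with 1 point per library, inhibition as red circles and control as grey squares, ordered by the mean. Ctss lies highest (mean 49.9 RPKM) and Ciita lowest (0.193 RPKM), and for the chains, Cd74, H2-DMa and Ciita the control points spread further than the inhibition points.

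The chain genes were at similar levels in the 3 inhibition grafts and far apart in the controls. H2-Aa, the alpha chain of I-A, stood at 18.3, 24.9 and 15.7 CPM in inhibition 1, 2 and 3, against 6.39, 29.0 and 6.43 CPM in control 1, 2 and 3. Control 2 was the highest of the 6 libraries and the other controls were the lowest, so the groups overlapped. H2-Ab1, the beta chain that pairs with it, gave 20.8, 23.6 and 14.3 CPM under inhibition and 3.74, 23.3 and 6.14 CPM in controls. Here control 2 lay just under inhibition 2. H2-Eb1, the beta chain of I-E, gave 15.2, 17.1 and 11.3 CPM under inhibition and 4.88, 20.9 and 5.22 CPM in controls, in the same order of libraries as H2-Aa. The log2 fold changes, inhibition over control, were 0.51 for H2-Aa (SE 0.68, edgeR adjusted p = 0.757), 0.84 for H2-Ab1 (SE 0.72, adjusted p = 0.617) and 0.50 for H2-Eb1 (SE 0.63, adjusted p = 0.736). None of these 3 differences exceeded the spread between replicates.

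Cd74, whose product is the invariant chain, stood at 43.0, 47.1 and 31.4 CPM under inhibition and 15.1, 52.7 and 11.8 CPM in controls. Its libraries fell in nearly the order of the chains, with control 2 highest and control 3 lowest. The means were 40.5 ± 8.19 CPM under inhibition and 26.5 ± 22.7 CPM in controls (SD, n = 3 each). The log2 fold change was 0.62 (SE 0.64, edgeR adjusted p = 0.683).

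The DM genes, whose products form the heterodimer that loads peptides, did not keep a common pattern. H2-DMa gave 3.36, 3.22 and 2.76 CPM under inhibition and 2.23, 4.22 and 0.967 CPM in controls, from 20 to 65 counts per library. It followed the chains, with a log2 fold change of 0.35 (SE 0.46, edgeR adjusted p = 0.741). H2-DMb1 gave 4.69, 6.70 and 5.42 CPM under inhibition and 7.05, 9.16 and 4.98 CPM in controls, with a log2 fold change of -0.32 (SE 0.26, edgeR adjusted p = 0.561). It was the only member with a negative value, its lowest library was inhibition 1, and control 1 was second highest. The ratio of H2-DMb1 to H2-DMa per length was 2.86, 4.27 and 4.03 under inhibition and 6.49, 4.45 and 10.6 in controls.

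Ctss, the gene of cathepsin S, varied less. It stood at 60.8, 71.1 and 91.4 CPM under inhibition and 49.2, 86.4 and 47.9 CPM in controls, with a log2 fold change of 0.29 (SE 0.28, edgeR adjusted p = 0.655). Inhibition 3, the lowest inhibition graft for every chain, was the highest of all for Ctss.

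The 2 regulators behaved unlike each other. Ciita, the coactivator that sets whether a cell makes class II, gave 2.10, 2.56 and 1.71 CPM under inhibition and 0.964, 3.05 and 0.628 CPM in controls, in the library order of Cd74. Its log2 fold change was 0.48 (SE 0.54, edgeR adjusted p = 0.694). The 13 counts of control 3 allow 0.335 to 1.07 CPM and the 47 counts of control 2 allow 2.24 to 4.06 CPM (95% exact Poisson intervals, covering counting error only), so these controls differed beyond counting error. Rfx5, a subunit of the X box binding complex, was nearly even across the grafts, at 12.7, 12.9 and 11.0 CPM under inhibition and 12.1, 11.8 and 9.57 CPM in controls (log2 fold change 0.13, SE 0.15, edgeR adjusted p = 0.707).

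**Figure D2:**
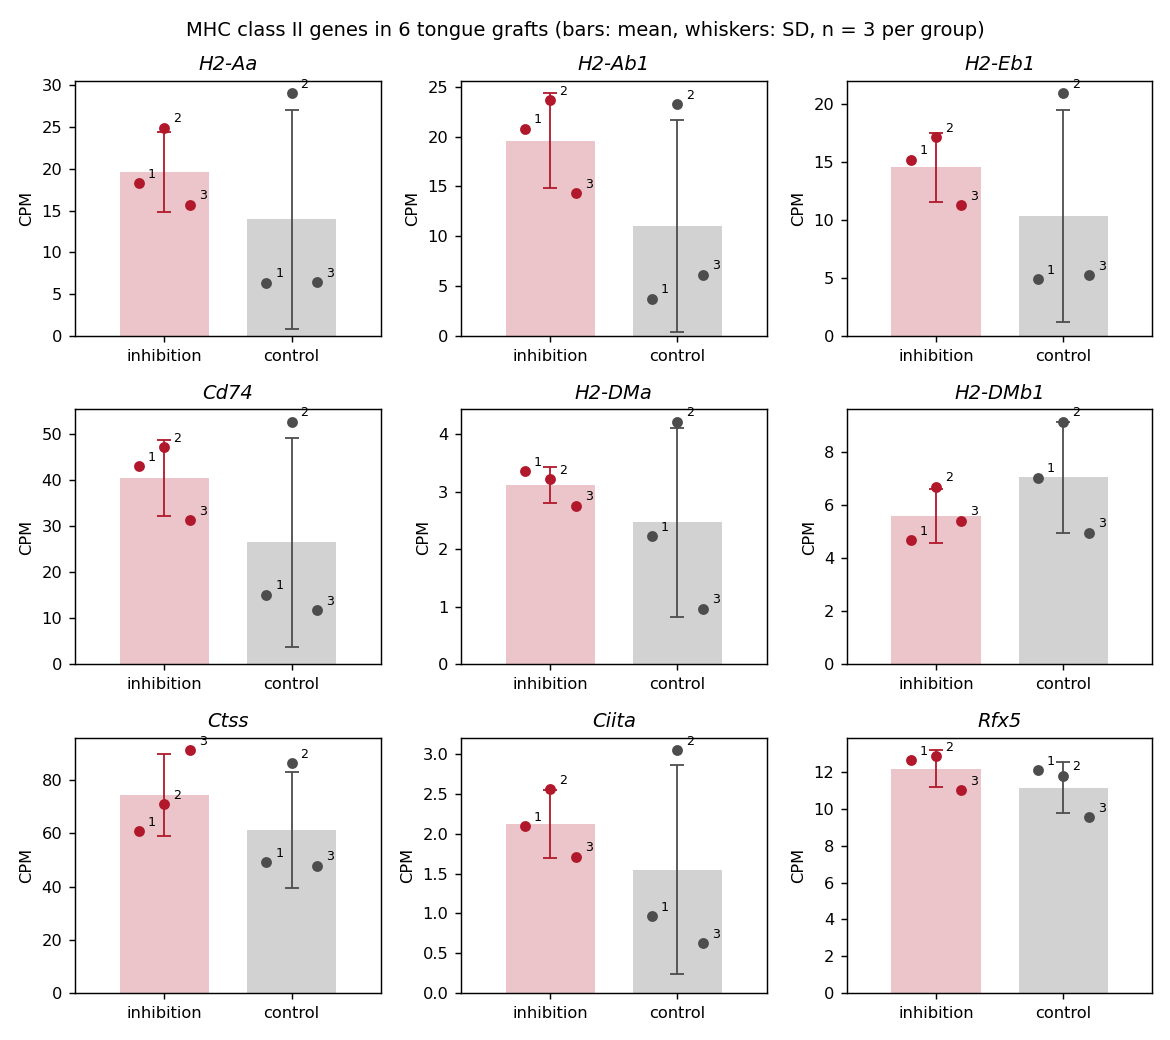
CPM of each gene in the 3 inhibition libraries (red, left) and the 3 control libraries (grey, right). Points are libraries with their replicate number, bars the mean and whiskers the SD. In the panels of the chains, Cd74, H2-DMa and Ciita, control 2 lies among or above the inhibition points and control 1 and 3 lie below them, while Rfx5 is nearly level.

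Read together, 8 of the 9 members had a log2 fold change above 0 and their median was 0.48, while 51% of all 15666 genes were positive with a median of 0.00488. None of the 9 was called by edgeR (0 of 9, against 0.0383% of all genes tested, 0.0319% higher and 0.00638% lower). In edgeR 0 had an unadjusted p under 0.05, against 15.4% of all genes (1310 higher and 1097 lower of 15666). DESeq2 and limma-voom called 0 of them too (3.67% of genes in DESeq2, 2.37% higher and 1.3% lower, and 0% in limma-voom). In 0 of the 9 did the groups separate, whereas they did in 21.3% of the genes tested. The exact permutation test of the log2 level, two-sided, gave p = 0.3 for H2-Ab1 and Ctss, 0.4 for H2-Aa, H2-Eb1, Cd74, H2-DMb1 and Ciita, 0.5 for Rfx5 and 0.6 for H2-DMa, where the smallest p that 3 against 3 allows is 0.1.

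The spread lay in the controls. Between the lowest and the highest control, levels differed 6.23-fold for H2-Ab1, 4.86-fold for Ciita, 4.55-fold for H2-Aa, 4.47-fold for Cd74, 4.37-fold for H2-DMa and 4.29-fold for H2-Eb1. Among the inhibition grafts the same 6 genes differed 1.65-, 1.49-, 1.59-, 1.50-, 1.22- and 1.52-fold. Ranked against all tested genes by the SD of their log2 level within a group, these 6 stood at the 51.1 to 83.3 percentile among inhibition grafts and at the 98.2 to 99.5 percentile among controls. The percentiles were 72.7 among inhibition grafts and 83.1 among controls for H2-DMb1, 77.2 and 85.8 for Ctss, and 43.6 and 54.7 for Rfx5. Control 2 was the highest library for 6 of the 9 members, as it was for 12.2% of all tested genes. Whether the wider range of the controls is more than 3 grafts give by chance was not tested.

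Control 2 therefore decides the fold changes. Each of the 6 libraries was left out in turn, and only without control 2 was any member called. H2-Aa then had a log2 fold change of 1.60 (SE 0.22) and Cd74 one of 1.58 (SE 0.20), both with an edgeR adjusted p = 0.042, and they were among 24 genes called in all (0.148%; 19 higher, 0.117%, and 5 lower, 0.0307%). H2-Ab1 (1.96, SE 0.29, edgeR adjusted p = 0.0562) and H2-Eb1 (1.50, SE 0.22, adjusted p = 0.0521) did not pass. Without control 2 Ciita had a log2 fold change of 1.41 (adjusted p = 0.136), H2-DMa 0.96 (0.239), Ctss 0.60 (0.135), Rfx5 0.16 (0.674) and H2-DMb1 -0.11 (0.856). The median over the members was 1.41, and 8 of 9 were above 0, against 49.1% of genes. In this fit 7 members had an unadjusted p under 0.05, all 7 higher, against 10.2% of genes that were higher at that p. Leaving out any of the other 5 libraries gave a median of 0.133 to 0.624 and 0 members called. Control 2 is the library with the highest class II levels, so its omission raises the fold by construction, and the labels give no reason to set it aside.

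**Figure D3:**
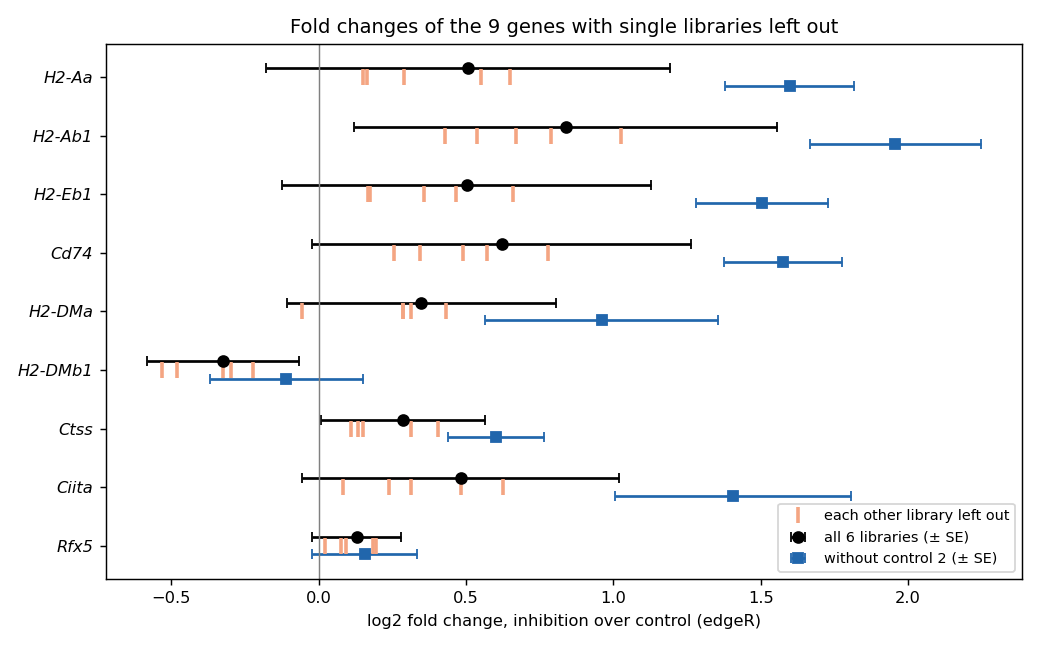
Log2 fold change, inhibition over control, of each gene from edgeR: black circles use all 6 libraries and blue squares leave out control 2, both with the standard error, and orange ticks leave out each of the other libraries. The chains, Cd74 and Ciita move to between 1.41 and 1.96 without control 2, and Rfx5 (0.13 to 0.16) and H2-DMb1 (-0.32 to -0.11) move the least.

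Within a graft H2-Aa, H2-Eb1, Cd74 and Ciita varied less relative to each other than each did between grafts. Per length, Cd74 stood at 5.33, 4.28 and 4.52 times H2-Aa under inhibition and at 5.36, 4.10 and 4.15 times in controls. H2-Eb1 stood at 1.62, 1.34 and 1.40 times H2-Aa under inhibition and at 1.49, 1.41 and 1.59 times in controls. The ratio of Cd74 to Ciita ran from 104 to 116 under inhibition and from 89.1 to 107 in controls, a range of 1.31-fold for genes that each differed over 4-fold between libraries. H2-Aa stood at 21.8, 24.5 and 23.0 times Ciita under inhibition and at 16.6, 23.9 and 25.7 times in controls, a 1.54-fold range with control 1 lowest. H2-Ab1 varied more against H2-Aa: it stood at 1.68, 1.40 and 1.35 times H2-Aa under inhibition, at 1.18 and 1.41 times in control 2 and 3, and at 0.865 times in control 1. There H2-Ab1 had 62 counts and H2-Aa 106.

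Among the other class II pathway genes, listed by role, the tested ones varied 1.10- to 2.17-fold between the lowest and the highest library, except Cd83. Cd83, whose product stabilises class II at the surface, gave 1.61, 1.79 and 1.71 CPM under inhibition and 0.181, 2.79 and 1.01 CPM in controls (log2 fold change 0.38, edgeR adjusted p = 0.822). It was highest in control 2 and lowest in control 1, where it had 3 counts, and next lowest in control 3. Of 20 listed, 15 were tested, 10 above 0 and 5 below, and their median log2 fold change was 0.10. No tool called any (0 in edgeR, DESeq2 and limma-voom), and at an unadjusted p under 0.05 edgeR had 2 higher, Lgmn and Nfyc, and none lower. The groups did not overlap in 5 of the 15 (Lgmn, Nfya, Nfyc, Creb1 and Marchf8), against 21.3% of all genes. The most abundant were the endosomal proteases Ctsb (1004 to 1054 CPM under inhibition and 879 to 1052 in controls), Ctsd (558 to 596 and 541 to 599.7 CPM) and Ctsl (173 to 199.6 and 190 to 204 CPM). The 5 untested genes, H2-Ea among them, encode further class II chains. H2-DMb2 had at most 15 counts in a library, H2-Ob at most 4, H2-Eb2 at most 3, and H2-Oa, whose product with that of H2-Ob restrains DM in B cells, at most 1. For the X and Y box factors, Rfxank gave 7.70, 9.98 and 6.57 CPM under inhibition and 6.27, 7.21 and 6.81 CPM in controls, and Nfya 92.0, 91.3 and 92.5 CPM against 84.4, 88.1 and 84.5 CPM. Marchf1, the ligase that removes class II from the surface, gave 2.31, 1.43 and 1.57 CPM under inhibition and 1.08, 2.21 and 1.06 CPM in controls, again with control 2 among the highest.

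In whole grafts, fewer class II positive cells and less class II RNA per cell cannot be told apart, so markers of the cells that carry class II are given beside these values. All 12 macrophage markers were tested, 10 of them above 0, and the median log2 fold change was 0.49. By edgeR 0 passed, by limma-voom 0 and by DESeq2 1 (3.67% of all genes in DESeq2). In edgeR 2 had an unadjusted p under 0.05, both higher, against 1310 higher of all 15666 genes. Their summed level was 380 to 451 CPM under inhibition and 231, 402 and 255 CPM in control 1, 2 and 3. The most abundant were Lyz2, a lysozyme gene (118 to 166 CPM under inhibition and 62.2 to 123 CPM in controls), Cd68 (45.9 to 62.1 and 23.1 to 50.9 CPM) and C1qb (38.6 to 49.9 and 27.7 to 52.0 CPM). Csf1r, the receptor for macrophage colony-stimulating factor, stood at 25.6, 30.8 and 25.9 CPM under inhibition and 15.6, 22.9 and 15.2 CPM in controls (log2 fold change 0.62, edgeR adjusted p = 0.186, and 0.0318 in DESeq2). Ptprc, the pan-leukocyte gene CD45, stood at 11.1, 11.3 and 10.5 CPM under inhibition and 5.97, 10.6 and 5.41 CPM in controls (log2 fold change 0.58, edgeR adjusted p = 0.306). Control 1 and 3 were the lowest pair of libraries for 7 of the 9 class II members, and for 14.3% of all tested genes. They were the lowest pair also for Ptprc and for 9 of the 12 macrophage markers, Csf1r among them. The other 3, scavenger or clearance receptor genes, were highest in control 1: Mrc1 gave 19.1, 24.5 and 22.7 CPM under inhibition and 24.9, 24.6 and 20.0 CPM in controls, Cd163 gave 6.86, 9.31 and 7.33 CPM against 10.1, 8.25 and 9.18 CPM, and Mertk gave 9.45, 8.80 and 9.23 CPM against 9.58, 8.06 and 7.78 CPM. Per length, H2-Aa stood at 1.08, 1.23 and 0.922 times Csf1r under inhibition and at 0.625, 1.93 and 0.642 times in controls, a 3.09-fold range. Ctss per Csf1r had a 1.64-fold range. Per C1qb, a complement gene of macrophages, the range was 2.56-fold for H2-Aa and 1.38-fold for Ctss. The part of macrophage content in the class II values was not tested.

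Other carriers of class II were scarce in the counts. Of 14 dendritic cell markers 9 were tested, 4 above 0 and 5 below. Their median log2 fold change was -0.0036, and edgeR, DESeq2 and limma-voom called 0 (in edgeR, 1 was higher by the unadjusted p). Their sum, 59.9 to 65.8 CPM under inhibition and 35.5 to 58.0 in controls, came mostly from Fscn1, which other cells also express, and Zbtb46, which vessels also express. The defining gene Flt3 had 6, 12 and 10 counts under inhibition and 3, 10 and 3 in controls. In CPM Flt3, Itgax and Ccr7 were highest in control 2 and lowest in control 1 and 3, as H2-Aa and H2-Eb1 were. Itgax gave 4.478, 3.224 and 3.426 CPM under inhibition and 1.145, 4.483 and 2.271 CPM in controls. Ccr7 gave 1.47, 0.665 and 0.761 CPM against 0.542, 1.88 and 0.58 CPM. Zbtb46, at 8.19, 10.9 and 10.1 CPM against 10.8, 10.2 and 8.7 CPM, and Fscn1 did not have this order. Nor did any other marker of the 14. Of 10 B cell markers 8 stayed under 1 CPM in every library, the list summing to 2.45 to 4.61 CPM under inhibition and 2.23 to 2.79 CPM in controls. Cd79a, a B cell receptor subunit, gave 0.619 to 1.28 and 0.390 to 1.21 CPM. Of 10 T cell markers 8 stayed under 1 CPM in every library, and the sum was 6.19 to 7.23 CPM under inhibition and 5.61, 10.5 and 4.98 CPM in controls, highest in control 2. Lck, a T cell kinase, made up most of it, at 4.41, 4.20 and 5.14 CPM under inhibition and 4.76, 6.37 and 3.82 CPM in controls. The scarcer T cell genes did not share 1 order. Cd8a had 0, 2 and 4 counts under inhibition and 4, 13 and 0 in controls. Cd3d, Cd3e, Cd3g and Cd8b1 were highest in control 2 too, with 7, 3, 8 and 9 counts there, and Trac was highest in control 3. Cd4 had 7, 12 and 11 counts under inhibition and 3, 5 and 4 in controls, and Cd2 had 9, 6 and 7 against 2, 4 and 3. These genes were too low to be tested.

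Non-tumoral tissue was trimmed off according to the design text, and genes of muscle and epithelium were nonetheless counted. All 11 tested skeletal muscle genes were above 0, with a median log2 fold change of 1.36. Called were 0 by edgeR and limma-voom and 3 by DESeq2 (3.67% of all genes in DESeq2). By the unadjusted p in edgeR 6 were higher, against 1310 of all 15666 genes. The groups did not overlap in 4, against 21.3% of all genes. The list, expressed as its mean log2 level less the control mean, stood at 1.76, 1.69 and 0.82 under inhibition and at -0.65, 0.81 and -0.16 in controls, so control 2 was close to inhibition 3. Acta1, muscle actin, gave 1003, 849 and 722 CPM under inhibition and 263, 504 and 427 CPM in controls. Of 10 squamous epithelium genes 9 were above 0 and Krt14 was below (-0.23), and the median was 0.49. No tool called any (1 was higher by the unadjusted p in edgeR), and the groups overlapped in all 10. Their sums were 1559 to 4929 CPM under inhibition and 1256 to 2807 CPM in controls; the basal keratin gene Krt5 gave 89.9 to 141 and 65.9 to 99.4 CPM. With the muscle level as a covariate, 8 of the 9 members were below 0 (Rfx5 at -0.00068) and Ctss was at 0.019; the median was -0.72, and edgeR called 0 genes in all. The covariate itself moves with the group, so this fit cannot tell muscle content and group apart. The part of muscle content in the class II values was not tested. Neutrophil markers ran the other way, with all 10 below 0 and a median of -2.03. Called were 0 by edgeR and limma-voom and 4 by DESeq2 (3.67% of all genes in DESeq2). By the unadjusted p in edgeR 6 were lower, against 1097 of all 15666 genes. Their sums were 9.73 to 33.7 CPM under inhibition and 41.0 to 105 CPM in controls.

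Interferon gamma, the classical inducer of Ciita, was at the limit of detection, and Irf1 did not share the class II order. Ifng had 1, 2 and 0 counts under inhibition and 0, 3 and 0 in controls. Irf1, an interferon-induced factor that acts on the interferon promoter of Ciita, stood at 9.59, 13.5 and 11.0 CPM under inhibition and 24.0, 35.4 and 10 CPM in controls (log2 fold change -1.02, edgeR adjusted p = 0.362). In control 1, where class II was low, Irf1 was above every inhibition graft. Of the 7 tested genes of this axis 2 were above 0 and 5 below. The 3 tools called 0, and Jak2, a receptor kinase, had an unadjusted p under 0.05 in edgeR, at 48.4, 45.3 and 43.9 CPM under inhibition and 60.7, 55.7 and 50.4 CPM in controls (log2 fold change -0.28). Co-stimulatory genes reached at most 8.86 CPM. Of the 5 tested, 3 were above 0 and 2 below, and the 3 tools called 0. Cd86, above 0, gave 1.47, 1.59 and 0.809 CPM under inhibition and 0.542, 1.62 and 0.773 CPM in controls. Below 0 were Icosl and Tnfsf9. Icosl gave 5.88, 4.86 and 6.33 CPM under inhibition and 7.71, 5.26 and 5.27 CPM in controls. Tnfsf9 gave 5.04, 4.66 and 5.85 CPM against 8.86, 7.15 and 5.90 CPM (log2 fold change -0.49, unadjusted p under 0.05 in edgeR).

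**Figure D4:**
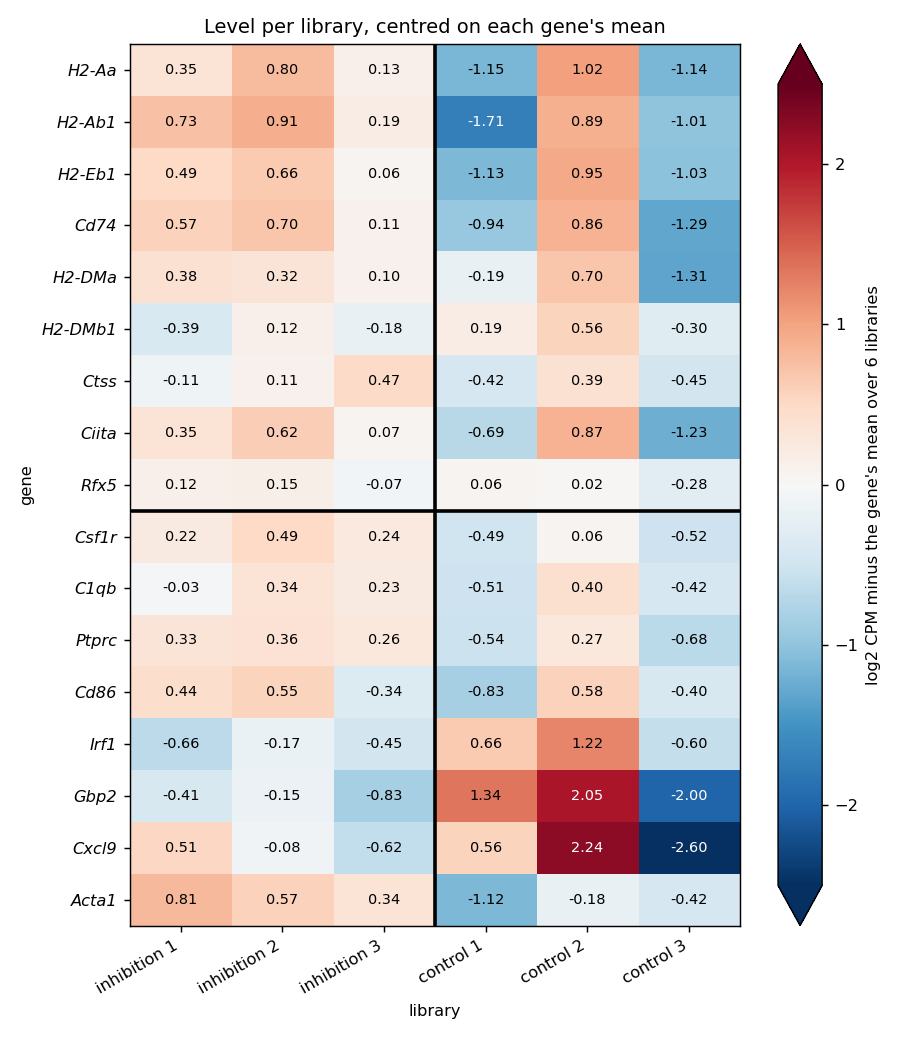
Log2 CPM of each gene in each library less the gene's mean over the 6 libraries, with inhibition on the left and control on the right; the members stand above the line and other genes below it. Control 1 and 3 are low for the chains (-1.71 to -1.01) and control 2 high (0.89 to 1.02), whereas Irf1, Gbp2 and Cxcl9, interferon-induced genes of which Gbp2 and Cxcl9 were chosen after their values were seen, are above their mean in control 1.

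The genes nearest to class II in pattern were sought among 12601 named genes of at least 1 CPM, by the similarity (Pearson r over the 6 libraries) to the mean scaled level of the chains, Cd74 and both DM genes. The nearest was Cd52, a small surface glycoprotein of lymphocytes and myeloid cells (r = 0.990), with 4.48, 5.12 and 3.38 CPM under inhibition and 2.47, 5.85 and 1.79 CPM in controls. Those close behind included Fam45a, Art3, Icam1 (an adhesion molecule for leukocytes), Creb5, Mthfsd, Fmnl1 (a formin of blood cells), Uty and Cln3, down to r = 0.954. Their own fold changes were small, between 0.05 and 0.37 on the log2 scale. With 6 libraries, and 113 genes above an r of 0.9, this is a description of these grafts only.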

How the data were processed

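Counts of reads for each Ensembl gene were used as deposited: whole numbers that sum to different totals, with no scaling seen in the authors' values. Per the submitters' processing notes, HISAT2 2.0 and mm10 were used. How reads were assigned to genes (program, annotation, filters, strand) is not given in the sources used here. Columns were matched to samples by name; treated columns are named for denervation, and the sample titles, which say inhibition, were followed. Of 55487 gene IDs, 55141 matched a symbol. Exon lengths and coordinates came from GENCODE M21 (GRCm38, which mm10 names).

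Genes were kept with filterByExpr (count minimum 10, total minimum 15), scaled by TMM and fitted in edgeR 4.0.16 (R 4.3.3) by quasi-likelihood with no covariate. P-values were adjusted by Benjamini-Hochberg over 15666 genes and called at 0.05. Each standard error was taken from the log2 fold change and its F statistic. Log2 levels used a prior count of 2. The fit was tested on simulated data in which each gene had the same dispersion in both groups. That test does not cover the wider spread of the controls described above. The members and lists were chosen with earlier results of these data known. Beside the members, the rule named called genes and the 3 most abundant of each list, 12 set marker and signalling genes, and the 10 genes nearest in pattern. Cd83, Cd86, Cd8a, Mrc1, Cd163, Mertk, Rfxank, Nfya, Marchf1 and the untested chain genes fall outside it and were chosen after their values were seen. So were Cd4, Cd2, Cd3d, Cd3e, Cd3g, Cd8b1, Trac, Itgax, Ccr7, Lgmn, Nfyc, Creb1 and Marchf8. DESeq2 1.42.0 and limma 3.58.1 (voom) were alternatives, beside other scalings, filters, a block, a covariate and single libraries left out. A few of the genes this rule names are not reported here.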

Additional observations from a re-analysis of the deposited data

How the results depend on the processing

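Of 135 fold changes of the 9 members under 15 alternatives, 125 kept their direction and side of the threshold. The number of members called was 0 in every setting run, also at an adjusted p under 0.1, except without control 2, where it was 2 (a range of 0 to 2 with single libraries left out). The members' median log2 fold change was 0.133 to 1.41 with single libraries left out, 0.82 in limma-voom and -0.72 with the muscle covariate. With that covariate the values were -0.93 for H2-Aa, -0.81 for H2-Ab1, -0.93 for H2-Eb1, -0.72 for Cd74, -0.49 for H2-DMa, -0.81 for Ciita, -0.00068 for Rfx5 and -0.0029 for Ptprc, and the macrophage and other class II pathway medians were -0.043 and -0.059. The covariate itself moves with the group, and the cause was not tested. With single libraries left out H2-DMa ran from -0.055 (without control 3) to 0.96. Over all genes edgeR called 6, against 1187 with no filter, 541 in DESeq2, 0 in limma-voom, 0 with the muscle covariate and 33 at an adjusted p under 0.1. With single libraries left out it called 0 to 208: 208 without inhibition 3, 24 without control 2, 8 without control 1, and 0 without inhibition 1, inhibition 2 or control 3. Calls among the cell type and interferon lists were 0, against 11 with no filter, 8 in DESeq2 and 0 to 3 with single libraries left out (3 without inhibition 3, 1 without control 2). RLE and upper-quartile factors left 0 members at the smallest exact p. Same-numbered libraries deviated from their group means with correlations of -0.18, 0.327 and 0.087, and not every library correlated best with its own number, so the numbers were not taken as pairs. The replicate block gave 14 calls over all genes and 0 among the members. Ciita, H2-DMa and the untested chains are limited by depth.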

Other observations

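Other interferon-induced genes, chosen after their values were seen, differed in how they ordered the controls. Gbp2, an interferon-induced GTPase, stood at 11.7, 14.0 and 8.71 CPM under inhibition and 39.6, 65.0 and 3.82 CPM in control 1, 2 and 3. Cxcl9, a chemokine induced by interferon gamma, gave 6.30, 4.15 and 2.81 CPM under inhibition and 6.51, 21.2 and 0.628 CPM in controls. Nlrc5, the class I counterpart of Ciita, gave 6.44, 7.32 and 8.04 CPM under inhibition and 12.4, 19.1 and 3.77 CPM in controls, and B2m, the class I light chain, gave 359, 292 and 295 CPM under inhibition and 268, 477 and 194 CPM in controls. In Gbp2 and Nlrc5 control 1 stood well above every inhibition graft and in Cxcl9 about level with the highest of them, whereas in B2m control 1 and 3 stood below them, as they did in the class II chains. Control 2 was the highest library for all 4 of these genes.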
